A study of Mus musculus with 13 samples.

Results

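The 9 genes described here encode transcription factors, or a partner of them, that guide blood progenitors into the T cell lineage: Tcf7, Lef1, Gata3, Bcl11b, Bcl11a, Gfi1, Runx1, Cbfb and Myb. They were taken by gene symbol from the 43629 genes of the deposited table, with earlier results of these data known. RNA sequencing values of 13 libraries were examined, from 5 thymic lymphomas of Atm-/- mice (strain 129S6/SvEv), 5 lymphomas of Rag2c/c p53-/- mice (mixed C57BL/6 and 129S6/SvEv) and 3 thymuses of WT mice (C57BL/6). Atm encodes a kinase that signals DNA breaks. The Rag2c/c allele encodes the core of RAG2, a subunit of the V(D)J recombinase, without its C-terminal part. p53-/- mice lack the p53 tumor suppressor. RNA came from single-cell suspensions of whole thymus or tumor, in which fewer cells of a type and less RNA per cell cannot be told apart. The WT libraries were re-used from another series, and the ages of the mice are not given in the sources used here. Genotype, strain and tissue state go together in each group, so their parts in a difference cannot be told apart. In comparisons with WT thymus the same holds for the series from which the libraries came. Both lymphoma groups were compared with the same 3 WT thymuses.

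Thymic progenitors receive Notch signals and induce Tcf7 and Gata3, whose products open the T cell program. Bcl11b follows, and the start of its expression marks the point at which the cell commits to the T lineage. There the cell gives up myeloid and natural killer options. RUNX factors with their partner CBFβ, MYB, GFI1 and LEF1 act around this point and again when thymocytes pass to the CD4+ CD8+ double positive stage. Bcl11a, the paralog of Bcl11b, is used in progenitors, B cells and plasmacytoid dendritic cells.

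The unit of the values is the normalized count, the number of reads per gene divided by a size factor of the library and rounded to a whole number. Column totals lay between 19788898 and 21591289. In 7 libraries the values skipped whole numbers. From these gaps a single read was estimated to be worth 1.04 to 3.38 normalized counts, and 6.4 to 19.5 M reads per library to be counted on genes. Reads that were sequenced and not counted are not part of this estimate. The other 6 libraries skipped none, so a read was worth about 1 or less in them. The shallowest libraries by this estimate were Atm-/- lymphoma 2, Rag2c/c p53-/- lymphoma 2 and WT thymus 2, each under 10 M counted reads. The Atm gene itself was listed at 208 to 732 in Atm-/- lymphomas, 439 to 1315 in Rag2c/c p53-/- lymphomas and 1559 to 2274 in WT thymuses. Trp53 was listed at 2018 to 5461 in Rag2c/c p53-/- lymphomas, 4387 to 6341 in WT thymuses and 6853 to 11318 in Atm-/- lymphomas. Rag2 was listed at 260 to 790, 4199 to 5409 and 46 to 1025 in the same groups, in that order. Counts over a whole gene do not show which exons a null allele lacks. By limma, 0 of 6 T cell markers (Cd3d, Cd3e, Cd3g, Lck, Thy1 and Cd2) were called between any of the groups (0, 2 and 1 had an unadjusted 95% interval that left out 0), and their summed level was 56618 to 104050, 52306 to 105966 and 61514 to 99921 normalized counts in Atm-/- lymphomas, Rag2c/c p53-/- lymphomas and WT thymuses. Some markers of other cells were also called. Of 6 fibroblast markers 5 and 4 were called higher, of 6 thymic epithelium markers 3 and 4 lower, of 3 endothelium markers 0 and 2 lower and of 4 erythroid markers 1 and 1 higher, in Atm-/- and Rag2c/c p53-/- lymphomas respectively. Of all genes tested, 12.6% and 9.77% were called higher and 17.0% and 13.9% lower. The erythroid marker called was Klf1, at 3 to 5 in WT thymuses, 7 to 29 in Atm-/- and 6 to 30 in Rag2c/c p53-/- lymphomas. Foxn1 and Psmb11 of the thymic epithelium passed the filter of 10 or more in 3 libraries through the WT thymuses alone, and Klf1 through the lymphomas alone. Cdh5 and Kdr, the endothelium markers called, reached 10 in too few lymphomas to pass without the WT thymuses. The part of these cells in the results was not tested.

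All 9 genes passed the filter on low values and were tested by limma on log2(normalized count + 1). A gene was called at a Benjamini-Hochberg adjusted p under 0.05 with a log2 difference of 1 or more in either direction, provided that the mean reached 10 in either group. In Atm-/- lymphomas against WT thymus, Bcl11b and Bcl11a were called lower and none of the 9 was called higher. Of all 15872 genes tested, 17.0% were called lower and 12.6% higher in that comparison. Without the fold threshold, 5 of the 9 passed the adjusted p (Bcl11a, Bcl11b, Gata3, Runx1 and Myb), beside 44.6% of all genes. The groups did not overlap for 4 of the 9 (Bcl11a, Bcl11b, Runx1 and Myb), beside 51.3% of all genes. The median log2 difference of the 9 was -0.13, beside -0.02 over all genes.

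In Rag2c/c p53-/- lymphomas against WT thymus, Bcl11a alone of the 9 was called lower and none was called higher. The shares of all genes were 13.9% called lower and 9.77% called higher. Without the fold threshold, 3 of the 9 passed (Bcl11a, Bcl11b and Myb), beside 37.3% of all genes. The groups did not overlap for 4 of the 9 (Bcl11a, Bcl11b, Cbfb and Myb), beside 43.9% of all genes. The median log2 difference was -0.27, beside -0.02. Between the lymphoma groups, limma called 0 of the 9, beside 3.51% of all genes called higher and 4.33% called lower in Atm-/- lymphomas. Bcl11b alone passed the adjusted p there, beside 11.6% of all genes, and 2 of the 9, Bcl11b and Bcl11a, had an unadjusted 95% interval that left out 0. No member had groups without overlap between the lymphoma groups, beside 8.33% of all genes. Read against these shares, none of the counts is particular to the 9 genes.

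**Figure D1:**
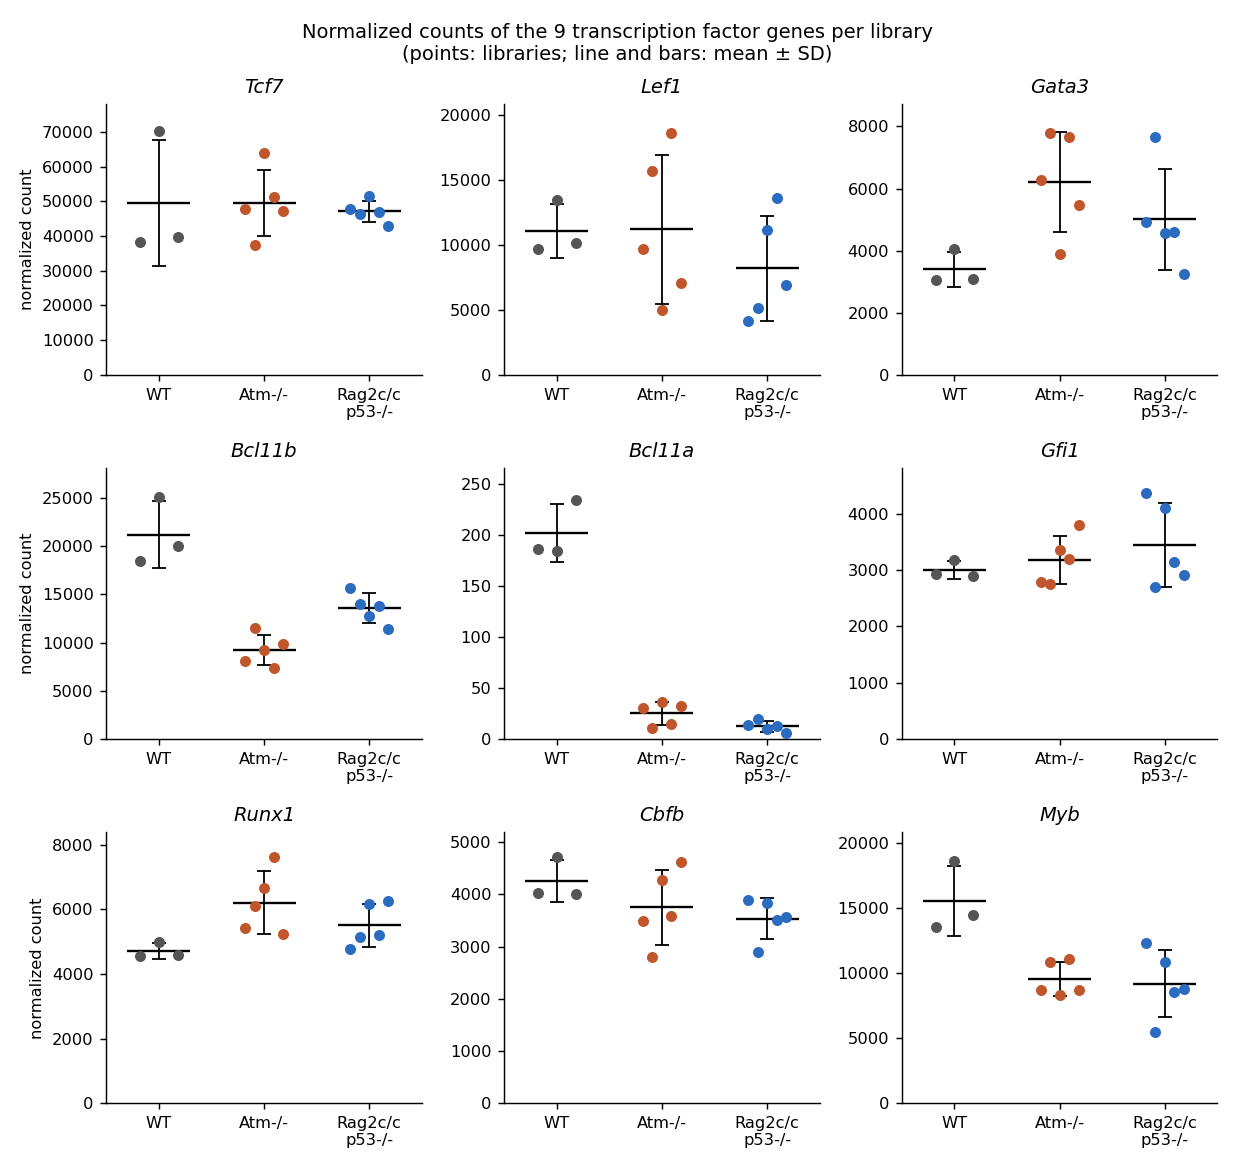
Normalized counts (vertical axes, each from 0) of the 9 genes in 3 WT thymuses (grey), 5 Atm-/- lymphomas (orange) and 5 Rag2c/c p53-/- lymphomas (blue), each point a library and each line with bars the mean ± SD. Bcl11b and Bcl11a lay below every WT thymus in all 10 lymphomas, while Tcf7 spanned 37415 to 70396 over the 13 libraries with the groups mixed.

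Bcl11b encodes a C2H2 zinc finger factor that T cell progenitors need to commit to their lineage. The gene (ENSMUSG00000048251) lies on the minus strand of chromosome 12 from 107910403 to 108003602 in GRCm38, and no other gene overlaps it. For each of the 9 genes 1 promoter window of RefSeq was searched (GRCm38.p6, 300 bases from 250 before to 50 after a start site), the window whose start site lies nearest to the 5′ end of the gene, and further windows of Tcf7, Lef1, Gfi1 and Runx1 were not searched. That of Bcl11b is shown because, of these 9 windows, it held the sole match to the TCF and LEF motif. The motif CTTTGA, searched on both strands, is in capitals, and 16.0% of 32851 promoter windows held it.
Bcl11b promoter, chr12:108003365-108003664, minus strand: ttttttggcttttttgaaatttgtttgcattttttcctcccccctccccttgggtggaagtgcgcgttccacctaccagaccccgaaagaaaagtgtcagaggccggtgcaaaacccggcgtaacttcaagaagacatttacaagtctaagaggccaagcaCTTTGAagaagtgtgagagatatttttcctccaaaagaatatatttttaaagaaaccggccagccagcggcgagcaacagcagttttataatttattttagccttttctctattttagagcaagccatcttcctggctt
The window had a GC content of 43.0%, below the median of 52.7% over all windows, and held none of the other motifs searched on both strands. These were TGTGGT for RUNX factors, AGATAA for GATA factors and AACNGT for MYB.

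The 3 WT thymuses held 18420, 25105 and 19958 normalized counts of Bcl11b. In the 5 Atm-/- lymphomas there were 8101, 11512, 9265, 7406 and 9835. The 5 Rag2c/c p53-/- lymphomas held 15650, 14033, 12792, 13798 and 11421. Every lymphoma was below every WT thymus, and the Atm-/- lymphomas were the lower of the lymphoma groups apart from lymphoma 2, which reached just above Rag2c/c p53-/- lymphoma 5. Bcl11b fell by 1.20 on the log2 scale in Atm-/- lymphomas (SE 0.166, limma adjusted p = 0.000108), a ratio of 0.435 to WT thymus. The difference lay between -1.30 and -1.07 with any library left out. The difference in Rag2c/c p53-/- lymphomas was -0.64 (SE 0.166, adjusted p = 0.00889), a ratio of 0.642 that did not reach the fold threshold. Without WT thymus 2 it was -0.51 with an adjusted p of 0.0543, at the edge of a range of 0.00493 to 0.0543 over 22 alternatives.

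The level of Bcl11b in Atm-/- lymphomas was 0.677 times that in Rag2c/c p53-/- lymphomas, a log2 difference of -0.56 (SE 0.144, 95% interval -0.87 to -0.25, limma adjusted p = 0.0229). This was the sole one of the 9 genes with an adjusted p under 0.05 between the lymphoma groups. Without Atm-/- lymphoma 1 or 4 or Rag2c/c p53-/- lymphoma 1 the difference was -0.52, -0.49 and -0.51, with adjusted p of 0.0599, 0.0596 and 0.0553 in a range of 0.00997 to 0.0599 over the alternatives.

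Bcl11a (ENSMUSG00000000861, plus strand of chromosome 11 from 24078056 to 24174123) encodes the related zinc finger factor that B cell development requires. Its RefSeq promoter is shown because the gene had the widest difference of the 9, and it held none of the 4 motifs searched.
Bcl11a promoter, chr11:24080445-24080744, plus strand: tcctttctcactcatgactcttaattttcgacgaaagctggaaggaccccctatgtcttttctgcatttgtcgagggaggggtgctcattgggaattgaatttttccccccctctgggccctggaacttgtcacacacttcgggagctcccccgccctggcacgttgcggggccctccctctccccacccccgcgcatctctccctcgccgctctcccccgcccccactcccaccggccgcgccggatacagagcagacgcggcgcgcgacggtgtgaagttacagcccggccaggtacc
The start site of this window lies 2639 bases inside the gene as the deposited table bounds it, and its GC content was 63.0%.

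Bcl11a was listed at 187, 185 and 235 normalized counts in the WT thymuses. Values of 31, 11, 36, 15 and 33 were found in the Atm-/- lymphomas and of 14, 20, 10, 13 and 6 in the Rag2c/c p53-/- lymphomas. The highest lymphoma was far below the lowest WT thymus, and the lymphoma groups overlapped. The log2 difference from WT thymus was -3.08 in Atm-/- lymphomas (SE 0.472, limma adjusted p = 0.000228), a ratio of 0.118. In Rag2c/c p53-/- lymphomas it was -3.98 (SE 0.472, adjusted p = 6.01e-05), a ratio of 0.0632. With any library left out the differences lay between -3.24 and -2.84 and between -4.16 and -3.77. Between the lymphoma groups the difference was 0.90 (SE 0.409, 95% interval without adjustment 0.02 to 1.78, adjusted p = 0.18). A single read was worth up to 3.38 normalized counts, so the lymphoma values rest on few reads.

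B cell markers and a minority of the markers of plasmacytoid dendritic cells were called in the same direction as Bcl11a. Of 5 B cell markers (Cd79a, Cd79b, Ms4a1, Pax5 and Ebf1), 4 were called lower in the Atm-/- group and all 5 in Rag2c/c p53-/- lymphomas against WT thymus. Their summed level was 1209 to 1495 normalized counts in WT thymuses, 90 to 231 in Atm-/- lymphomas and 82 to 398 in Rag2c/c p53-/- lymphomas. None of the 5 was at 0 in every library of a group. Cd79a, which encodes a chain of the B cell receptor complex, was listed at 279 to 308 in WT thymuses, 19 to 91 in Atm-/- lymphomas and 19 to 132 in Rag2c/c p53-/- lymphomas. Of 6 markers of plasmacytoid dendritic cells, Siglech was called lower in both lymphoma groups, from 143 to 249 in WT thymuses to 36 to 68 in Atm-/- and 13 to 24 in Rag2c/c p53-/- lymphomas. Ccr9, which thymocytes also express, was called lower in Rag2c/c p53-/- lymphomas. The other 4 were not called against WT thymus, with log2 differences in Atm-/- and Rag2c/c p53-/- lymphomas of 0.41 and 0.32 for Bst2, -0.19 and -0.16 for Tcf4, 0.21 and -1.93 for Ly6d and -0.79 and -1.93 for Spib. The summed level of the 6 was 21804 to 28460 normalized counts in WT thymuses, 10522 to 21467 in Atm-/- lymphomas and 6876 to 16671 in Rag2c/c p53-/- lymphomas, and none was at 0 in every library of a group. The part of these cells in the difference of Bcl11a was not tested.

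**Figure D2:**
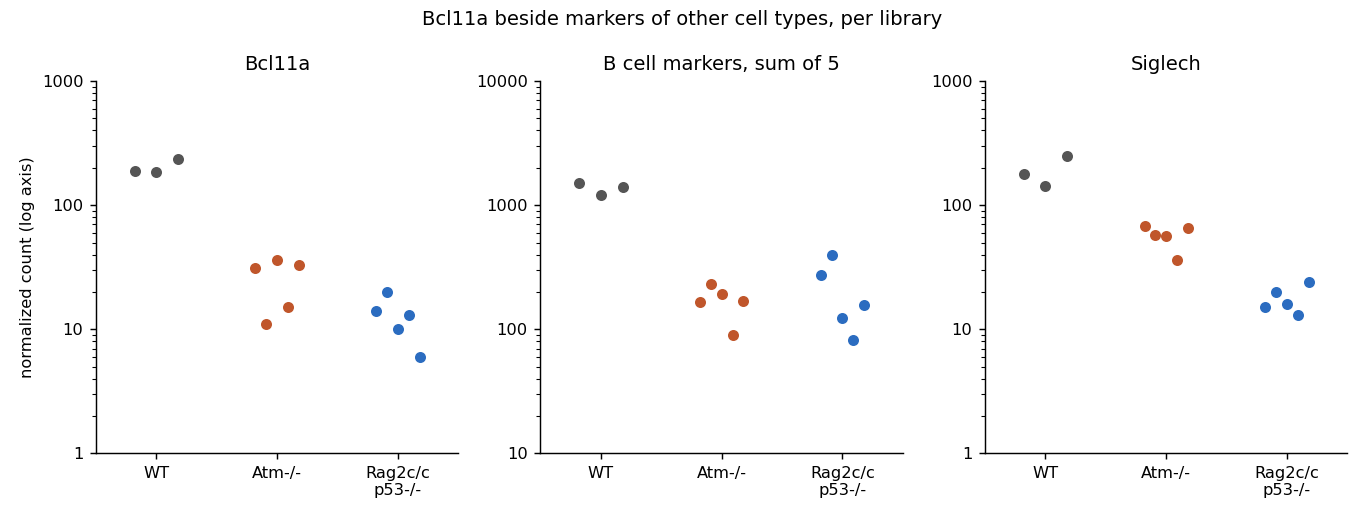
Bcl11a, the sum of 5 B cell markers and Siglech, 1 of 6 markers of plasmacytoid dendritic cells, in normalized counts (log axes) in each WT thymus (grey), Atm-/- lymphoma (orange) and Rag2c/c p53-/- lymphoma (blue). In all 3 panels the 3 WT thymuses lie above the 10 lymphomas, with Bcl11a at 185 to 235 in WT thymuses and at 6 to 36 in lymphomas.

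Gata3 (ENSMUSG00000015619, minus strand of chromosome 2 from 9857078 to 9890034) encodes a GATA zinc finger factor that early T progenitors need and that later favours CD4+ cells. The WT thymuses held 3063, 4048 and 3084 normalized counts. The Atm-/- lymphomas held 6261, 7778, 3893, 7677 and 5467, and the Rag2c/c p53-/- lymphomas held 4938, 7663, 4566, 4614 and 3247. In each lymphoma group 4 of 5 libraries lay above the highest WT thymus, and Atm-/- lymphoma 3 and Rag2c/c p53-/- lymphoma 5 did not. The level in Atm-/- lymphomas was 1.79 times that in WT thymus, a log2 difference of 0.84 (SE 0.265, 95% interval 0.27 to 1.41, limma adjusted p = 0.0205). Without WT thymus 1 or 3 it was 0.77 and 0.78 with an adjusted p of 0.0801 and 0.0804, the highest of 22 alternatives, whose lowest was 0.00694. That of Rag2c/c p53-/- lymphomas was 0.52 (SE 0.265, 95% interval -0.06 to 1.09, adjusted p = 0.142).

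A gene of the same strand lies inside the bounds of Gata3, 9230102O04Rik (ENSMUSG00000079602, 9883041 to 9889540), and was picked out after its values had been seen. It was listed at 1, 3 and 1 in the WT thymuses, where 3 is the worth of a single read of WT thymus 2. The Atm-/- lymphomas held 105, 130, 54, 162 and 55 normalized counts, and the Rag2c/c p53-/- lymphomas 37, 206, 25, 168 and 106. It was called higher in both lymphoma groups, with log2 differences of 5.21 (SE 0.674, limma adjusted p = 7.05e-05) and 5.02 (SE 0.674, adjusted p = 0.000144) that depend on the pseudocount because the WT values are near 0. This gene passed the filter on low values through the lymphomas alone, so it could be called in no direction but higher. How reads in the shared stretch were divided between it and Gata3 is uncertain.

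The pair of HMG box genes, Tcf7 and Lef1, encode TCF-1 and LEF-1, which bind the same motif and with β-catenin answer WNT signals. Tcf7 (ENSMUSG00000000782, minus strand of chromosome 11 from 52252371 to 52283014) was listed at 38311, 70396 and 39749 in WT thymuses. It was listed at 47734, 37415, 63832, 51208 and 47194 in Atm-/- lymphomas and at 47677, 46232, 51560, 46939 and 43027 in Rag2c/c p53-/- lymphomas. The groups overlapped throughout, and WT thymus 2 was the highest of the 13 libraries. The log2 difference from WT thymus was 0.04 in Atm-/- lymphomas (SE 0.205, 95% interval -0.40 to 0.48, limma adjusted p = 0.895) and -0.02 in Rag2c/c p53-/- lymphomas (SE 0.205, interval -0.46 to 0.43, adjusted p = 0.96). The sign rested on single libraries. With the 3 shallowest libraries left out, WT thymus 2 among them, the difference was 0.42 (adjusted p = 0.0326, in a range of 0.0326 to 0.952 over 22 alternatives) in Atm-/- and 0.28 (adjusted p = 0.149, range 0.149 to 0.991) in Rag2c/c p53-/- lymphomas.

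Lef1 (ENSMUSG00000027985, plus strand of chromosome 3 from 131110471 to 131224356) varied most within the lymphoma groups among the members listed above 1000. The WT thymuses held 9710, 13481 and 10127 normalized counts. The Atm-/- lymphomas held 9674, 15686, 5034, 18627 and 7082, from below to above all WT thymuses. The Rag2c/c p53-/- lymphomas held 4117, 5137, 11170, 13625 and 6958, of which 3 were below all WT thymuses. Its SD of log2 values was 0.784 among Atm-/- lymphomas and 0.729 among Rag2c/c p53-/- lymphomas, above that of 95.3% and 93.7% of 5647 genes whose mean reached 1000. The log2 difference from WT thymus was -0.13 (SE 0.44, 95% interval -1.08 to 0.81, limma adjusted p = 0.824) and -0.57 (SE 0.44, interval -1.51 to 0.38, adjusted p = 0.328). Tcf7 showed the opposite spread in Rag2c/c p53-/- lymphomas, where its SD of 0.094 exceeded that of 1.8% of those genes. In WT thymuses its SD of 0.492 exceeded that of 98.8%.

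Runx1 encodes a Runt domain factor, and Cbfb its partner, which does not bind DNA itself. Runx1 (ENSMUSG00000022952, minus strand of chromosome 16 from 92601466 to 92826149) has its RefSeq promoter shown because it was the sole one of the 9 searched windows with RUNX motifs, the letters of the family's own binding motif. Capitals mark RUNX (TGTGGT, read here on the other strand) and MYB (AACNGT) motifs.
Runx1 promoter, chr16:92826025-92826324, minus strand: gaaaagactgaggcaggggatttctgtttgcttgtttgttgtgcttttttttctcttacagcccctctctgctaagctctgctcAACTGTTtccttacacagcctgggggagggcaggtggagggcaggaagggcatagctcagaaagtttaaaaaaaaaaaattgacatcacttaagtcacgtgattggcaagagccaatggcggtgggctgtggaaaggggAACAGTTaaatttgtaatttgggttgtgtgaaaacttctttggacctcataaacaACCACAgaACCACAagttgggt
The RUNX motif was found at 2 places, and 16.8% of all windows held it. The MYB motif gave 4 matches at 2 places, each read on both strands with overlap, and 26.1% of all windows held it. Of the other searched windows, that of Gfi1 held a MYB match, and the GATA motif, held by 11.2% of all windows, was in none of the 9 searched. The window of Gata3 has its start site 11434 bases inside the gene as the deposited table bounds it.

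Runx1 was listed at 4556, 4983 and 4595 normalized counts in WT thymuses. All Atm-/- lymphomas lay above the WT thymuses, at 5420, 6113, 6660, 7611 and 5254. The Rag2c/c p53-/- lymphomas held 4774, 5144, 6170, 5208 and 6254, of which the first lay within the WT range. The level in Atm-/- lymphomas was 1.31 times that in WT thymus, a log2 difference of 0.39 (SE 0.148, 95% interval 0.07 to 0.70, limma adjusted p = 0.0468). The adjusted p was above 0.05 under 12 of 22 alternatives, in a range of 0.0337 to 0.138, among them leaving out any WT thymus, Atm-/- lymphoma 2, 3 or 4, or Rag2c/c p53-/- lymphoma 4 or 5. For Rag2c/c p53-/- lymphomas it was 0.22 (SE 0.148, interval -0.10 to 0.54, adjusted p = 0.26). Cbfb (ENSMUSG00000031885, plus strand of chromosome 8 from 105170674 to 105217989) was listed at 4031, 4710 and 4013 in WT thymuses. Atm-/- lymphomas held 3483, 2795, 4267, 3589 and 4612, overlapping the WT range. The Rag2c/c p53-/- lymphomas held 3889, 2894, 3830, 3504 and 3564, all below the WT thymuses. The differences of Cbfb were -0.20 (SE 0.166, adjusted p = 0.342) and -0.27 (SE 0.166, adjusted p = 0.216).

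Myb (ENSMUSG00000019982, minus strand of chromosome 10 from 21124936 to 21160905) encodes a factor with MYB repeats that supports progenitors and double positive thymocytes. The WT thymuses held 13504, 18624 and 14472 normalized counts. Levels in the Atm-/- lymphomas were 8742, 10891, 8342, 11057 and 8736, and those in the Rag2c/c p53-/- lymphomas 12308, 5519, 10840, 8559 and 8757. All 10 lymphomas were below all WT thymuses. The level was 0.617 times that of WT thymus in Atm-/- lymphomas (log2 difference -0.70, SE 0.224, limma adjusted p = 0.0222) and 0.577 times in Rag2c/c p53-/- lymphomas (-0.79, SE 0.224, adjusted p = 0.0141), both short of the fold threshold. Without WT thymus 2 the differences were -0.56 (adjusted p = 0.103, range 0.00454 to 0.103) and -0.66 (adjusted p = 0.0738, range 0.00576 to 0.0738). Without WT thymus 3 that of Atm-/- lymphomas was -0.74 with an adjusted p of 0.0529, and without the 3 shallowest libraries that of Rag2c/c p53-/- lymphomas was -0.48 with an adjusted p of 0.0552.

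Gfi1 (ENSMUSG00000029275, minus strand of chromosome 5 from 107716657 to 107726036) encodes a zinc finger repressor. It was listed at 2935, 3180 and 2894 in WT thymuses, 2796, 2761, 3359, 3194 and 3803 in Atm-/- lymphomas and 4374, 2695, 4106, 3149 and 2907 in Rag2c/c p53-/- lymphomas. The 3 groups overlapped. The log2 differences from WT thymus were 0.08 (SE 0.174, 95% interval -0.30 to 0.45, limma adjusted p = 0.748) and 0.17 (SE 0.174, interval -0.20 to 0.55, adjusted p = 0.457). WT thymus 2, the shallowest of the WT libraries, was the highest of them for 8 of the 9 genes, Bcl11a being the exception. The part of its depth in this was not tested.

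**Figure D3:**
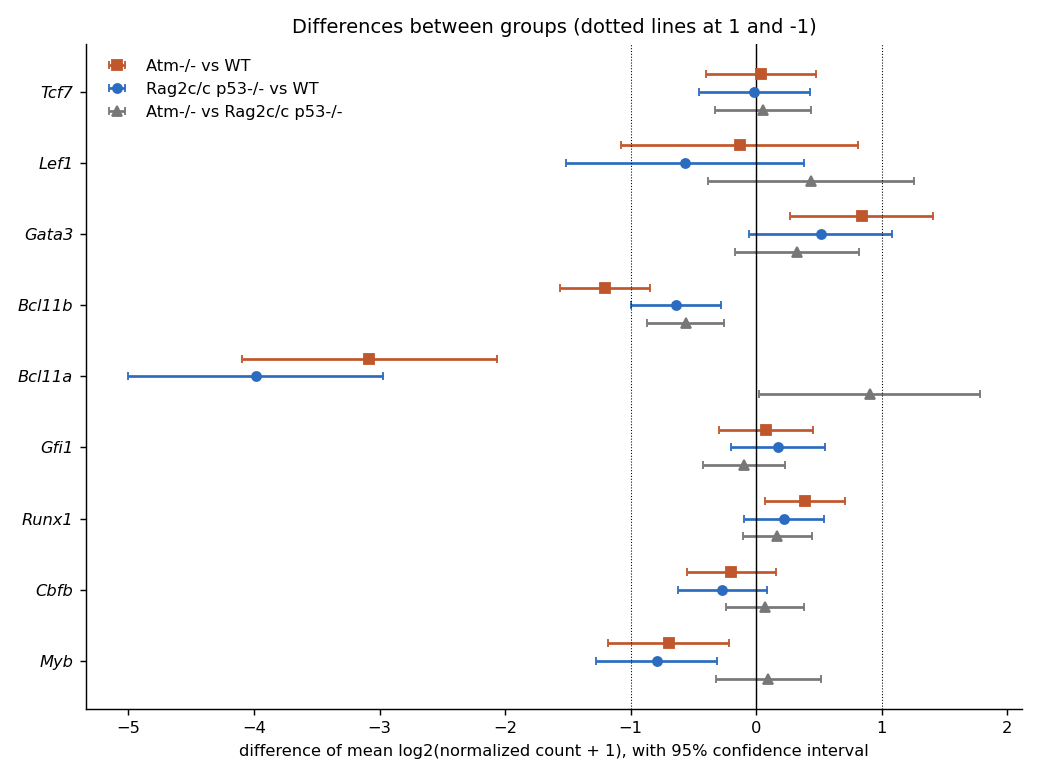
Difference of mean log2(normalized count + 1) with its 95% interval, without adjustment, for the 9 genes in Atm-/- lymphomas against WT thymus (squares), Rag2c/c p53-/- lymphomas against WT thymus (circles) and Atm-/- against Rag2c/c p53-/- lymphomas (triangles). Bcl11a lies at -3.08 and -3.98 against WT thymus and Bcl11b at -1.20 and -0.64, while the intervals of Tcf7, Lef1 and Gfi1 include 0 in all 3 comparisons.

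Levels were compared between the genes as normalized counts per kb of exon, with exon lengths from GENCODE vM21 for 15759 of the 15872 tested genes. Tcf7 had the highest level of the 9 in every group, 18852 ± 6904 per kb (SD, n = 3) in WT thymus, where it ranked 4 among the 15759 genes. In WT thymus the order below it was Bcl11b, Myb, Lef1, Cbfb, Gfi1, Gata3, Runx1 and Bcl11a. Lef1 could not be separated by its mean ± SD from Myb above it or Cbfb below it, and neither could Gfi1 from Gata3. In Atm-/- lymphomas the order was Tcf7, Gata3, Lef1, Bcl11b, Cbfb, Myb, Gfi1, Runx1 and Bcl11a, and each of the neighbours from Gata3 to Gfi1 overlapped the next. In Rag2c/c p53-/- lymphomas it was Tcf7, Bcl11b, Gata3, Gfi1, Myb, Cbfb, Lef1, Runx1 and Bcl11a, with overlap between each of the neighbours from Bcl11b to Runx1. Bcl11b thus ranked 206 among all genes in WT thymus, 649 in Rag2c/c p53-/- and 1139 in Atm-/- lymphomas by level per kb. Gata3 ranked 1363, 943 and 732.

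A ratio of genes within a library does not depend on the scaling of the library. The values of these ratios are of counts and not per length, so they compare libraries and not the genes with each other, and they carry no test. Gata3 as a percentage of Bcl11b was 16.6, 16.1 and 15.4 in the WT thymuses. It was 77.3, 67.6, 42.0, 103.7 and 55.6 in Atm-/- lymphomas and 31.6, 54.6, 35.7, 33.4 and 28.4 in Rag2c/c p53-/- lymphomas. The WT thymuses lay close together and below every lymphoma, and the lymphoma groups overlapped by Atm-/- lymphoma 3 and Rag2c/c p53-/- lymphoma 2 alone. Gata3 as a percentage of Myb was 21.3 to 22.7 in WT thymuses, 46.7 to 71.6 in Atm-/- lymphomas and 37.1 to 138.8 in Rag2c/c p53-/- lymphomas. Runx1 as a percentage of Cbfb was 105.8 to 114.5 in WT thymuses and 122.8 to 177.7 in Rag2c/c p53-/- lymphomas. In Atm-/- lymphomas it was 113.9 to 218.7, with the lowest, lymphoma 5, inside the WT range. Bcl11a as a percentage of Bcl11b was 0.737 to 1.18, 0.0956 to 0.389 and 0.0525 to 0.142 in WT thymuses, Atm-/- and Rag2c/c p53-/- lymphomas, so Bcl11a was lower in lymphomas also relative to Bcl11b. Lef1 as a percentage of Tcf7 was 19.1 to 25.5 in WT thymuses, within the spread of both lymphoma groups (7.89 to 41.9 and 8.64 to 29.0).

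**Figure D4:**
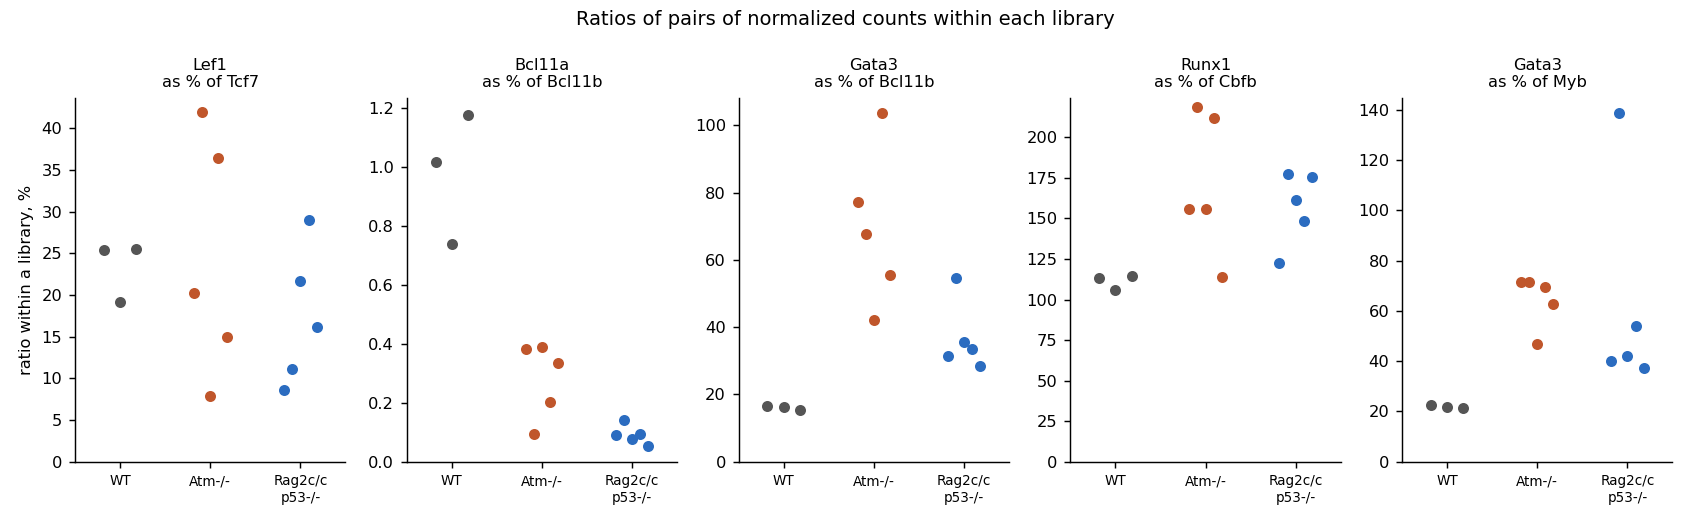
Ratios in percent (vertical axes, each from 0) of the normalized counts of 2 genes in the same library, for WT thymuses (grey), Atm-/- lymphomas (orange) and Rag2c/c p53-/- lymphomas (blue), each point a library. Gata3 lies at 15.4 to 16.6% of Bcl11b in WT thymuses and at 28.4 to 103.7% in lymphomas.

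The other genes of the program were read from lists made by role. Beside their counts stand the shares of all genes tested. In Atm-/- lymphomas against WT thymus 12.6% were called higher and 17.0% lower. The shares were 9.77% and 13.9% in Rag2c/c p53-/- lymphomas, and 3.51% and 4.33% in Atm-/- against Rag2c/c p53-/- lymphomas. The counts of each list below are to be read against these shares. Of 8 tested paralogs of the members, 2 were called higher and 2 lower in Atm-/- lymphomas against WT thymus, and 3 and 3 in Rag2c/c p53-/- lymphomas. The median log2 difference of the paralogs was 0.22 and 0.26, beside -0.02 over all genes in both comparisons. Tcf7l1, an HMG box gene that mostly represses, rose from 88 to 103 normalized counts in WT thymuses to 384 to 741 in Atm-/- and 259 to 686 in Rag2c/c p53-/- lymphomas. Tcf7l2 fell from 130 to 171 to 20 to 73 and 13 to 37 (log2 differences -1.76 and -2.75, SE 0.436, limma adjusted p = 0.00551 and 0.000417). Runx2, a bone and lymphoid RUNX gene, fell from 182 to 292 to 14 to 47 and 20 to 42 (log2 differences -2.91 and -2.96, SE 0.415, adjusted p = 0.000135 and 0.000192). Runx3, which CD8+ cells use, was called higher in Rag2c/c p53-/- lymphomas, at 2753 to 5885 against 1413 to 1761 in WT thymuses. In Atm-/- lymphomas Runx3 was listed at 1491 to 3187, a log2 difference of 0.52 that was not called, and the difference between the lymphoma groups, -0.83 (SE 0.24, adjusted p = 0.0394), was not called either. Gata1, an erythroid and megakaryocyte GATA gene, held 210, 114, 104, 100 and 198 normalized counts in Atm-/- lymphomas, 7, 41, 18, 46 and 21 in Rag2c/c p53-/- lymphomas and 88, 75 and 76 in WT thymuses. It was the sole paralog called between the lymphoma groups, which did not overlap (log2 difference 2.58, SE 0.451, adjusted p = 0.00278). Against WT thymus it was called lower in Rag2c/c p53-/- lymphomas (-1.80, SE 0.521, adjusted p = 0.0159) and not called in Atm-/- lymphomas (0.79, SE 0.521, adjusted p = 0.232). The call in Rag2c/c p53-/- lymphomas was lost without WT thymus 1 or 3. Mybl2, a MYB gene of dividing cells, was called higher in both, at 1646 to 3674 and 1955 to 3761 against 1040 to 1238. Of 6 markers of dividing cells none was called in Atm-/- and Birc5 alone in Rag2c/c p53-/- lymphomas. The list medians were 0.64 and 0.63. Top2a, Ccnb1, Cdk1, Birc5 and Plk1 were higher in Atm-/- lymphomas with limma adjusted p of 0.000289 to 0.0437, short of the fold threshold. So were Cdk1 and Plk1 in Rag2c/c p53-/- lymphomas (adjusted p = 0.00299 and 0.000542), where Top2a and Ccnb1 did not pass. Mki67 passed in neither group. The part of these markers in the difference of Mybl2 was not tested.

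Of 12 cofactors of the members, 1 was called higher and 4 lower in Atm-/- lymphomas, and 1 higher and 2 lower in Rag2c/c p53-/- lymphomas, with median log2 differences of -0.14 and 0.08. Tle4, a corepressor that TCF, LEF and RUNX factors recruit, fell from 1079 to 1279 normalized counts in WT thymuses to 28 to 146 in Atm-/- and 44 to 290 in Rag2c/c p53-/- lymphomas. Its log2 differences were -4.08 and -3.40 (SE 0.591, limma adjusted p = 0.000157 and 0.00079). Satb1, a chromatin organizer of thymocytes, fell from 33094 to 55053 to 10110 to 19331 and 10821 to 22688. Zfpm1, which encodes the GATA partner FOG-1, was the gene called higher in both, at 4065 to 6378 and 5651 to 6522 against 1623 to 2469. Tle1, of the family of Tle4, separated the lymphoma groups. It held 71, 169, 23, 17 and 21 normalized counts in Atm-/- lymphomas, 681, 581, 330, 244 and 734 in Rag2c/c p53-/- lymphomas and 351, 292 and 310 in WT thymuses. The difference between the lymphoma groups was -3.53 (SE 0.558, adjusted p = 0.00135), and it was the sole cofactor called there. Without the 3 shallowest libraries the count called lower in Rag2c/c p53-/- lymphomas was 1 in place of 2.

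Of 11 tested progenitor genes that are shut off at T commitment, 7 were called lower in the Atm-/- group, 5 in the Rag2c/c p53-/- group and none higher, and the medians were -1.49 and -1.31. Erg, an ETS gene of progenitors, fell from 104 to 123 normalized counts in WT thymuses to 0 to 8 and 0 to 6. Erg passed the filter on low values through the 3 WT thymuses alone, so it could be called in no direction but lower. Mycn fell from 68 to 93 to 0 to 3 and 0 to 35. Mycn too reached 10 in too few lymphomas to pass the filter without the WT thymuses. Spi1, which encodes the myeloid and B cell factor PU.1, was not called, at 250 to 277 in WT thymuses, 246 to 404 in Atm-/- and 179 to 272 in Rag2c/c p53-/- lymphomas. Kit, a stem cell factor receptor, varied widely in Atm-/- lymphomas, which held 327, 9, 16, 11 and 648 against 445 to 555 in WT thymuses and 152 to 1382 in Rag2c/c p53-/- lymphomas. These counts rested on the WT libraries. Without WT thymus 1, 2 or 3 the 7 became 1, 3 and 1, without the 3 shallowest libraries it became 3, and without WT thymus 1 or 3 the 5 became 3. In each of these settings 10 of the 11 genes were tested, and Erg was left out. Of 6 myeloid markers, 4 and 2 were called higher in Atm-/- and Rag2c/c p53-/- lymphomas. Called lower were 4 and 5 of 5 B cell markers, 1 and 2 of 6 plasmacytoid dendritic cell markers and 0 and 2 of 3 endothelium markers. The part of these cells in the values of the progenitor genes was not tested.

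Of 14 T cell identity genes turned on around commitment, 5 were called lower in the Atm-/- group, 4 in the Rag2c/c p53-/- group and none higher, with medians of -0.44 and -0.59. Rag1, the recombinase subunit of double positive and earlier cells, fell from 48182 to 70834 normalized counts in WT thymuses to 2383 to 7116 and 5620 to 23493. Cd28, a costimulatory receptor, fell from 7712 to 8238 to 687 to 3256 and 1327 to 2981. Cd5, a brake on T cell receptor signals, fell by 2.39 (SE 0.729, limma adjusted p = 0.0173) and 2.60 (SE 0.729, adjusted p = 0.0135) on the log2 scale. Of the genes of the CD3 complex on the list, Cd247 passed the adjusted p in both lymphoma groups and missed the fold threshold (log2 differences -0.61 and -0.59, SE 0.189, adjusted p = 0.0178 and 0.0249). Cd3g had differences of -0.59 and -0.88 (SE 0.329, adjusted p = 0.161 and 0.0504) and in Rag2c/c p53-/- lymphomas did not overlap WT thymus. The differences of Cd3d were -0.29 and -0.43 and those of Cd3e -0.12 and -0.12, with adjusted p from 0.355 to 0.786.

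Of 10 natural killer and innate lymphoid genes, 1 was called higher and 5 lower in Atm-/- lymphomas, and 2 higher and 5 lower in Rag2c/c p53-/- lymphomas, with medians of -1.86 and -1.53. Klrd1, a natural killer receptor gene, fell from 101 to 141 normalized counts in WT thymuses to 0 to 5 and 6 to 9. Nfil3, a factor that innate lymphoid cells need, was called higher in both, at 148 to 265 and 193 to 916 against 68 to 87. Tbx21 was called higher in Rag2c/c p53-/- lymphomas, at 311 to 1034 against 84 to 101 (log2 difference 2.85, SE 0.589, limma adjusted p = 0.00238). In Atm-/- lymphomas Tbx21 was listed at 56 to 662 and was not called (1.18, SE 0.589, adjusted p = 0.118). Without WT thymus 1, 2 or 3 the counts of 5 called lower became 3 (Atm-/-) and 2 (Rag2c/c p53-/-), as they did without the 3 shallowest libraries. In these settings 8 of the 10 genes were tested, and Klrd1 and Ncr1 were left out. Both passed the filter on low values through the 3 WT thymuses alone, so they could be called in no direction but lower. Eomes, also among those called lower, reached 10 in too few lymphomas to pass without the WT thymuses. Ncr1 was listed at 10 to 16 in WT thymuses, 0 to 5 in Atm-/- and 0 to 3 in Rag2c/c p53-/- lymphomas. Nfil3 was not called in Atm-/- lymphomas without WT thymus 1.

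Of 12 thymocyte stage genes, 6 were called lower in the Atm-/- group, 4 in the Rag2c/c p53-/- group and none higher, with medians of -1.53 and -1.59. S1pr1 and Ccr7, receptors that guide mature thymocytes, fell the most of those called in both. S1pr1 was listed at 1286 to 1406 in WT thymuses, 27 to 226 in Atm-/- lymphomas and 19 to 49 in Rag2c/c p53-/- lymphomas. Cd8a and Cd8b1 were called lower in Atm-/- lymphomas (log2 differences -1.49 and -1.66, SE 0.346 and 0.402, limma adjusted p = 0.00372 and 0.00487) and not in Rag2c/c p53-/- lymphomas (-0.50 and -0.45). Between the lymphoma groups the differences were -0.99 (adjusted p = 0.0469) and -1.21 (adjusted p = 0.0388), and Cd8b1 alone was called. That call was lost without Atm-/- lymphoma 1, 4 or 5, Rag2c/c p53-/- lymphoma 2, 3, 4 or 5, or WT thymus 1 or 3, with a fit of the lymphoma groups alone and without the trend and robust options, which left 0 genes of the list called lower, while without Atm-/- lymphoma 2 there were 3. Il7r, the interleukin 7 receptor gene, held 2860 to 7078 normalized counts in Atm-/- and 188 to 1967 in Rag2c/c p53-/- lymphomas, a log2 difference of 2.52 (SE 0.562, adjusted p = 0.0114) between them.

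**Figure D5:**
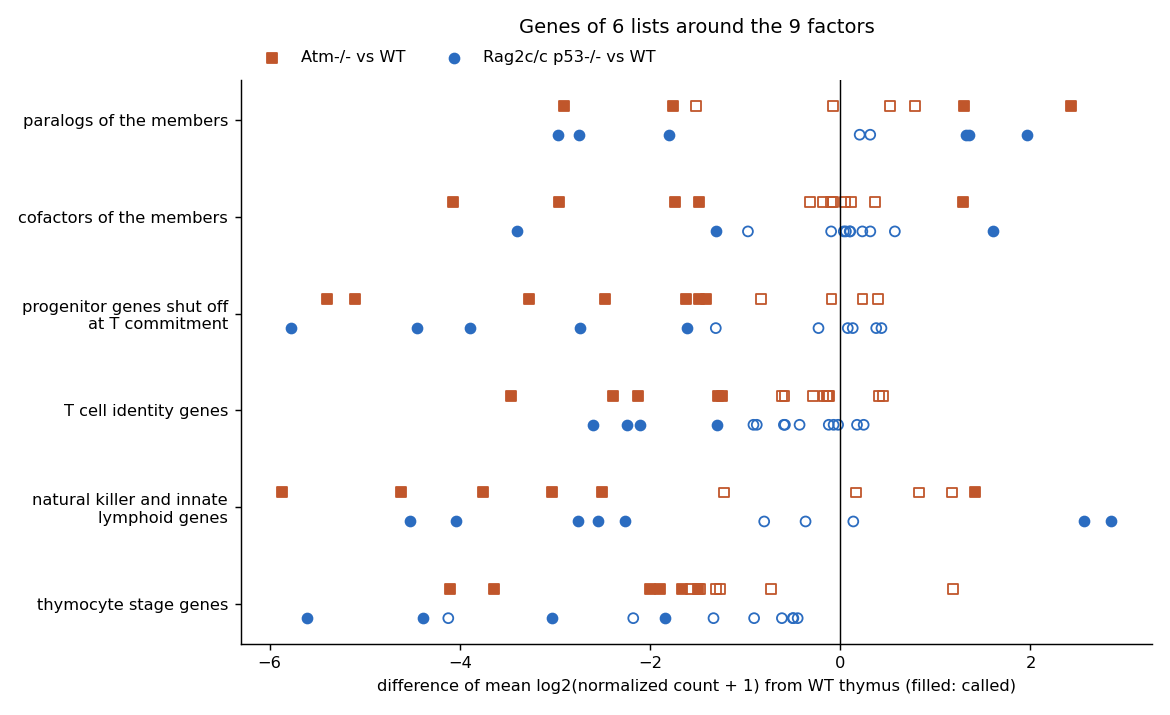
Difference of mean log2(normalized count + 1) from WT thymus (horizontal axis) for the tested genes of 6 lists (rows), in Atm-/- lymphomas (orange squares) and Rag2c/c p53-/- lymphomas (blue circles), filled where the gene was called. Progenitor, T cell identity and thymocyte stage genes have filled points below 0 alone, while the paralogs have 2 and 3 filled points on either side.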

How the data were processed

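RNA sequencing of 13 libraries was read from 1 deposited table. Reads had been mapped by the authors with STAR 2.4.0g1 (GRCm38, annotation of Ensembl 78), duplicates were taken out by Picard, and unique reads were counted per gene by HTSeq-count 0.6.1 and scaled by DESeq2 1.6.3 within SARTools 1.1.0. The paper states these steps for its own tumors and the WT thymuses, and they are taken to hold for these lymphomas. The strand setting of the counting is not given in the sources used here. The deposited values are normalized counts rounded to whole numbers, treated as a score. Their group means, fold changes, log2 fold changes, dispersions and p-values were not used. Whole reads could not be recovered from 6 libraries, so no count test was run.

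From these values limma 3.58.1 (R 4.3.3) was fitted to log2(value + 1) over the 3 groups, with the trend and robust options of its moderation. Genes needed 10 or more in 3 or more libraries. The fit was tested on simulated data. Differences on this scale understate the change of low genes. Nothing in the labels says that libraries of a group came from separate animals, so p-values measure the spread between these libraries. Members and lists were chosen with earlier results of these data known. Named besides the members are up to 2 called genes with the highest and 2 with the lowest difference per list, cell type markers, the 2 genes most like each member, and Atm, Trp53 and Rag2; not all are printed, and Spi1, Cd28, Cd8a, the CD3 genes and 9230102O04Rik were picked after their values were seen. A further B cell marker is not reported here. Exon lengths came from GENCODE vM21 and promoters of 9 of 9 members from RefSeq (GRCm38.p6). Alternatives covered scaling, filter, pseudocount, fold threshold, groups in the fit, moderation and each library in turn.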

Additional observations from a re-analysis of the deposited data

Results flagged for a closer look

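Bcl11b was picked out because its level differed between the lymphoma groups by a direct test, with a log2 difference of -0.563 in Atm-/- against Rag2c/c p53-/- lymphomas (limma adjusted p = 0.0229, 5 against 5 libraries). The Atm-/- lymphomas held 7406 to 11512 normalized counts and the Rag2c/c p53-/- lymphomas 11421 to 15650. A value standing apart from the rest of its group was looked for in the 18 groups of 5 libraries of the 9 genes, and 0 were found by Dixon's test. WT groups of 3 were not tested.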

How the results depend on the processing

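Over 22 alternatives, 559 of 594 differences of the 9 genes kept their sign and their side of an adjusted p of 0.05, 22 lost it, 1 gained it and 12 changed sign. None of the sign changes had an adjusted p under 0.05, and their causes were not tested. For Tcf7 in Atm-/- lymphomas against WT thymus the difference was 0.038 and became -0.06 without Atm-/- lymphoma 3, -0.118 without WT thymus 1 and -0.091 without WT thymus 3 (range with each library left out -0.118 to 0.321). In Rag2c/c p53-/- lymphomas it was -0.015 and became 0.017 without Rag2c/c p53-/- lymphoma 5, 0.269 without WT thymus 2 (range -0.17 to 0.269) and 0.275 without the 3 shallowest libraries, an alternative chosen after seeing the data. With it Tcf7 in Atm-/- lymphomas was 0.417 (adjusted p = 0.0326). Between the lymphoma groups it became -0.044 without Atm-/- lymphoma 3 (range -0.044 to 0.148). Lef1 in Atm-/- lymphomas became 0.115 without Atm-/- lymphoma 3 and 0.014 without WT thymus 2 (range -0.357 to 0.115). Between the lymphoma groups Cbfb became -0.009 without Atm-/- lymphoma 5 (range -0.009 to 0.171), and Myb became -0.076 without Rag2c/c p53-/- lymphoma 2 (range -0.076 to 0.213) and -0.126 without the 3 shallowest libraries. With no fold threshold 5, 3 and 1 of the 9 were called in place of 2, 1 and 0, and 5884 in place of 3750 genes were called in Rag2c/c p53-/- lymphomas against WT thymus, since that threshold removes small differences. The counts of members called did not change under any other alternative, and counts of all genes called lay between 3401 and 4902, 2505 and 3956, and 934 and 1315 with each library left out. The differences behind the 72 calls of list genes kept their sign in each of the 22 alternatives in which the gene was tested. Not all of these calls were kept. Genes that the filter left out of a setting, Erg, Klrd1 and Ncr1 among them, could not change sign there. For the lists the alternatives were added after seeing the data. No paired analysis was possible because the groups share no replicate numbers in the labels. Depth limits Bcl11a in lymphomas, at 6 to 36 normalized counts, and 3 WT libraries limit every comparison with them.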

Other observations

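For each of the 9 genes, the genes whose values followed it most closely from library to library were sought among 10759 genes (10760 for Bcl11a) with a mean of at least 100, over the 13 libraries after centring on group means. These correlations are descriptions. The libraries share depth and scaling, and each gene named was picked as the highest of the values searched. Pearson's r of the 18 closest genes lay between 0.838 and 0.947. The closest were Arrb2 to Gata3 (0.947), Ctcf to Cbfb (0.943), Gm10499 to Lef1 (0.93), Arrdc2 to Runx1 (0.92), Wdr6 to Bcl11a (0.919), Arid1a to Gfi1 (0.919), Eif4e3 to Bcl11b (0.916), Tbc1d10c to Myb (0.915) and Gm3608 to Tcf7 (0.88). Both genes closest to Cbfb, Ctcf and Tmco3, lie on its own chromosome, 8, Ctcf at 418.6 kb from it and Tmco3 at 91847.8 kb. Gm10499 and the second gene by likeness to Lef1, Gm20478, lie 22.1 kb apart on chromosome 17. Position was not tested in any of these pairs.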
